A study of Homo sapiens with 40 samples.

Results

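Chromatin was described at the genes of 7 islet hormones other than insulin: IAPP, GCG, SST, PPY, PYY, GHRL and UCN3. They were chosen by name, 7 of 19663 protein-coding genes in GENCODE 44, and every deposited region was taken that lay within 2 kb of one of their start sites, in the gene body, or nearest to one of them within 100 kb. This gave 17 of 51489 H3K27ac peaks, 17 of 51457 CTCF peaks, 4 of 14886 enhancers listed for non-senescent cells, 5 of 13076 enhancers listed for senescent cells, and 0 of 2435 Rb regions. All positions are in hg38.

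The study asked how chromatin is rearranged when human beta cells become senescent. It used EndoC-βH3, a human beta cell line of fetal pancreatic origin that carries the SV40 large T antigen and telomerase as removable immortalizing transgenes. Non-senescent cells were control cultures that kept the transgenes, and senescent cells had received 4-hydroxytamoxifen for 3 weeks, which activates the CreER recombinase that cuts the transgenes out. Both states therefore come from 1 cell line of wild-type genotype as labelled, and loss of the transgenes, exposure to the drug and senescence cannot be told apart. Of 40 libraries, 3 per state were made with an H3K27ac antibody, 3 per state with a CTCF antibody, 2 per state with an H3K4me1 antibody and 2 per state with an Rb antibody, and as many again were inputs.

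Each of these peptides is made by endocrine cells of the islet, and some also by the gut. IAPP (amylin) is stored and released with insulin by beta cells, GCG encodes proglucagon of alpha cells, SST encodes somatostatin of delta cells, PPY encodes pancreatic polypeptide, GHRL encodes ghrelin of epsilon cells and the stomach, PYY is an islet and gut peptide of the neuropeptide Y family, and UCN3 is a beta cell peptide that acts on delta cells. H3K27ac is a histone acetylation found at active promoters and enhancers, H3K4me1 marks enhancers, and CTCF is a zinc finger protein that binds DNA at loop anchors and insulators.

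The 7 genes fell into 3 kinds by what lay within 2 kb of their start sites. PYY and UCN3 had both H3K27ac and CTCF there, a class that held 39.6% of protein-coding genes. At PYY the marks lay at different start sites, H3K27ac at the canonical and CTCF at the distal one, and by the canonical start alone PYY had H3K27ac without CTCF. IAPP, SST and GHRL had H3K27ac without CTCF, as did 26.8% of genes. GCG and PPY had CTCF without H3K27ac, as did 8% of genes, and no member was in the class with neither, which held 25.6%. H3K27ac was thus present at the start of 5 of 7 members, beside 66.4% of all protein-coding genes, and CTCF at the start of 4 of 7, beside 47.6%. Both counts were near these shares of all genes. The chromatin is that of bulk cultures, in which fewer cells with a mark and less mark per cell cannot be told apart.

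Sequence just upstream of the start site is shown for SST and IAPP, where it lay under an H3K27ac peak, and for PPY and GCG, the 2 members without acetylation at the start, so that both kinds can be read side by side. The sequences come from RefSeq (GRCh38.p14), are read in the direction of transcription, and stop at the base before the canonical start site, except for GCG, where the stretch ends before its more distal start site. Capitals mark TATAAA, the letters of a TATA box, as well as TGACGTCA, those of a cAMP response element, and CTAATG, those of a homeodomain site.
SST, chr3:187670395-187670644, minus strand, under an H3K27ac peak: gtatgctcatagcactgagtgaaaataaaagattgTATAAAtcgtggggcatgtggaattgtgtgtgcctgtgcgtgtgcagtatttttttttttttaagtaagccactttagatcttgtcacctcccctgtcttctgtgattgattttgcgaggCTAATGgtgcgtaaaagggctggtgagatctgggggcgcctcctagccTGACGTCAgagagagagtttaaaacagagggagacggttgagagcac
IAPP, chr12:21372652-21372901, plus strand, under an H3K27ac peak: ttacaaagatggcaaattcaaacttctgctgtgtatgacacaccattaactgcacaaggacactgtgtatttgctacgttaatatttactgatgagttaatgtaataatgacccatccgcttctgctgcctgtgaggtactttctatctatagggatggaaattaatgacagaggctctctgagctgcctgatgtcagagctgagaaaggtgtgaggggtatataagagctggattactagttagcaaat
PPY, chr17:43942477-43942726, minus strand, no H3K27ac peak: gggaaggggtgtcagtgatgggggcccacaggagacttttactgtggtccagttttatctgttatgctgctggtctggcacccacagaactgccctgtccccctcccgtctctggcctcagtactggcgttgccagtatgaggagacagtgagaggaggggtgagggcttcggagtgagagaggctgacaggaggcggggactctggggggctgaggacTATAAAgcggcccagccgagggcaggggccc
GCG, chr2:162152405-162152497, minus strand, no H3K27ac peak: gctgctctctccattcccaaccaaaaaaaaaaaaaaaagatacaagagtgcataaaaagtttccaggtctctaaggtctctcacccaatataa

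RefSeq held promoter windows, of 250 bases before and 50 after a start site, for 6 of the 7 genes, all but UCN3. The windows of GCG and IAPP were AT-rich, with GC contents of 40% and 41% and 2 CpG dinucleotides each, beside a median of 62.33% GC and 21 CpG over 21574 windows of protein-coding genes. Only 6.24% of all windows had less GC than that of GCG and 7.31% less than that of IAPP. SST was intermediate at 48% GC with 11 CpG, followed by GHRL at 53% GC with 8 CpG. PPY (61.33%) and PYY (63.67%), neighbours on chromosome 17, were near the median in GC, yet each also held 8 CpG.

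The SST window held 4 of the 6 motifs that were searched as exact letters on both strands. Its TGACGTCA, the element through which CREB acts, began 47 bases before the start site and occurred in 2.29% of all windows. CTAATG began 95 bases before the start, and was found in 5.1% of windows. TATAAA was present 215 bases before the start (9.46% of windows), and TGCTGA, letters found in MAF factor sites, lay elsewhere in the window (15.5%). PPY held TATAAA 31 bases before its start, the usual distance of a TATA box. GCG held TATAAA and the E-box letters CATCTG (12.1% of windows), both outside the stretch shown, and GHRL held the forkhead letters TGTTTAC (2.86%). None of the 6 motifs was found in the canonical windows of IAPP and PYY. Near forms were not searched, so absence of the exact letters does not show that an element is lacking. The IAPP stretch shown holds TATATAAG close to its end, which a search for TATAAA does not find. Likewise, the SST stretch holds TTTAAA nearer to its start site than its TATAAA. A match describes letters and is not evidence of binding.

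**Figure D1:**
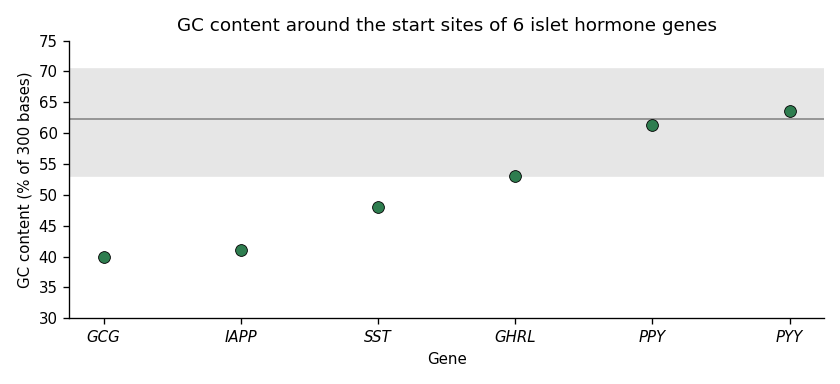
GC content, in percent of the 300 bases around the canonical start site, of the 6 hormone genes with a RefSeq window. Points are genes, the line is the median of 21574 windows (62.33%) and the band its quartiles (53% to 70.33%). GCG, IAPP and SST lie below the band, GHRL at its lower edge, and PPY and PYY near the median.

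The values in the peak tables are the authors' mean normalized count, a single number per peak over the 6 libraries of both states. It carries no SD, and how far libraries differ at a peak is not known from it, so no order of levels given here could be set against a replicate error. Peaks of different width were compared as mean count per kb of peak.

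At the start sites, H3K27ac was highest at UCN3, with 183.4 per kb, followed by GHRL with 152.4, PYY with 120.2, IAPP with 64.5 and SST with 50.3. Among 14007 H3K27ac peaks at protein-coding start sites, with a median of 152 per kb and quartiles of 83.0 and 239.7, UCN3 stood above 59.6% and GHRL above 50.2%. PYY stood above 38.6%, IAPP above 17.8% and SST above 11.2%. IAPP and SST were thus below the lower quartile of acetylated start sites. For comparison, the peak at the start of INS, the insulin gene, had 230.4 per kb.

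**Figure D2:**
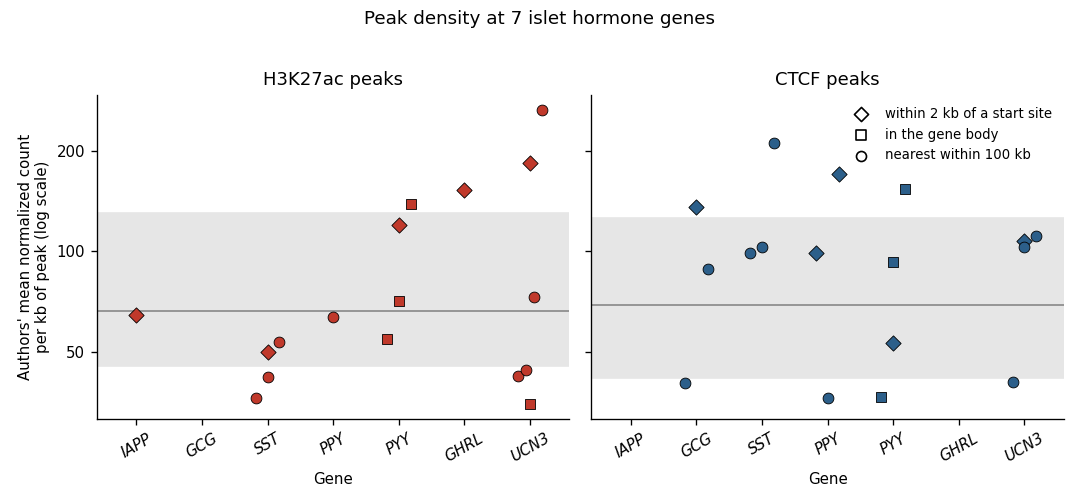
Authors' mean normalized count per kb of peak, on a log axis, for the 17 H3K27ac and 17 CTCF peaks of the 7 hormone genes. Each symbol is a peak, with its shape giving the relation to the gene, and the line and band are the median and quartiles over all peaks of the antibody. The H3K27ac peaks of SST all lie below the median, whereas 12 of 17 CTCF peaks lie above theirs, and GCG has no H3K27ac peak and IAPP and GHRL no CTCF peak.

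Over the whole set, the 17 H3K27ac peaks ranged from 35.0 to 264.8 per kb with a median of 63.7, close to the 66.6 of all 51489 peaks (quartiles 45.7 and 130.0). Of the 17, 10 were below that median. By position, 5 were at start sites, 4 in gene bodies and 8 elsewhere but nearest to a member. The 17 CTCF peaks ranged from 36.5 to 210.6 per kb with a median of 99.1, beside 69.4 over all CTCF peaks, and 5 were below that value. Here 5 were at start sites, 3 in gene bodies and 9 elsewhere. H3K27ac and CTCF met at 5 of the 17 H3K27ac peaks, against 26.9% of all H3K27ac peaks, and at 5 of the 17 CTCF peaks, against 30.4% of all CTCF peaks.

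UCN3 (ENSG00000178473.7, chr10:5364966-5374692, plus strand) held the densest H3K27ac peak of the 7 genes. It was not at the promoter but at chr10:5311653-5318121, a region of 6.469 kb that ended 46.8 kb upstream of the start, where the mean count was 1713 and the count per kb 264.8. That peak stood above 92.7% of all H3K27ac peaks per kb. Its link to UCN3 depends on counting protein-coding genes only, since the pseudogene RPL26P28 starts 6.79 kb from it, and without it the densest peak of UCN3 is that at the promoter, with 183.4 per kb. A narrower peak beside it, chr10:5309224-5311272, had a mean count of 149.9 and 73.2 per kb. The promoter peak, chr10:5363425-5366542, covered the start site and had a mean count of 571.9. The other 3 peaks were weak: chr10:5360316-5360943 had 44.4 per kb, chr10:5373375-5374001, over an exon within the gene, had 35.0, and chr10:5383482-5384874, 18.5 kb downstream of the start, had 42.6. CTCF lay over the start site itself, at chr10:5364937-5365861, inside the acetylated region, with a mean count of 99.2. A second CTCF peak, chr10:5383704-5384969, met the downstream H3K27ac peak and had a mean count of 140.4. The other 2 CTCF peaks were 80.7 and 70.4 kb upstream, beyond the distal acetylated region, with mean counts of 117.4 and 14.8. Their link to UCN3 also depends on counting protein-coding genes only. Start sites of ENSG00000291045 and AKR1C7P lie 0.296 and 5.72 kb from them, respectively.

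PYY (ENSG00000131096.11, chr17:43952733-44004469, minus strand) is the longest of the 7 genes, at 51.7 kb, because 1 of its 2 start sites lies far upstream. Acetylation was near the proximal start, which is the canonical one, and in the gene body between the 2 start sites. Regions were compared with exons of canonical transcripts only, so exons of the longer PYY transcript were not checked there. The peak chr17:43951669-43953780 began 0.16 kb downstream of the canonical start, covered exons and had a mean count of 253.8. Between the start sites, chr17:43982462-43985419 was the densest of the locus, with a mean count of 408.7 and 138.2 per kb, above 76.8% of all H3K27ac peaks. Its neighbours chr17:43979303-43980297 and chr17:43976393-43978488 had mean counts of 54.6 and 149.1. CTCF peaks sat within 2 of these 3 gene body peaks, with mean counts of 74.3 and 10.9. The strongest CTCF peak of the gene, chr17:43993960-43996049, was also between the start sites but unacetylated, with a mean count of 320.1. The distal start had no H3K27ac peak within 2 kb. The CTCF peak 1.19 kb upstream of it had a mean count of 32.7. That peak covered an annotated start site and an exon of the neighbouring gene NAGS, and was thus nearer to NAGS than to PYY.

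PPY (ENSG00000108849.8, chr17:43940804-43942476, minus strand) lies directly downstream of PYY on the same strand and had no H3K27ac at its start. The H3K27ac peak closest to a PPY start site was the promoter peak of PYY, 9.19 kb away. The only H3K27ac peak assigned to PPY itself was chr17:43930271-43932152, 9.36 kb downstream over a long non-coding RNA gene, with a mean count of 119.9 and 63.7 per kb. CTCF bounded the gene on either side. The peak chr17:43943017-43945030, 0.541 kb upstream of the start and between PPY and PYY, had a mean count of 341.8 and 169.7 per kb, above 87.7% of all CTCF peaks. The peak chr17:43940244-43941169 covered the 3′ end of the gene, with a mean count of 91.8. A minor peak 3.89 kb upstream had a mean count of 15.4.

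GCG (ENSG00000115263.15, chr2:162142882-162152404, minus strand) was the only member to which no H3K27ac peak was assigned, whereas 77.7% of protein-coding genes had at least 1. With non-coding genes counted, the single peak of PPY went to the non-coding gene that it overlaps, and PPY then had none either. The nearest was a peak 48.7 kb away, chr2:162103033-162103532, which was nearer to DPP4, the gene of a protease that cuts incretin hormones. CTCF was present directly upstream, at chr2:162152515-162154589, whose near edge was 0.111 kb from the distal start site and which had a mean count of 282.4 and 136.1 per kb. This peak stood above 77.0% of the CTCF peaks at protein-coding start sites. The other CTCF peaks were 2.75 kb upstream, with a mean count of 15.2, and 27.1 kb downstream at chr2:162123501-162125114, with a mean count of 143.4.

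SST (ENSG00000157005.4, chr3:187668912-187670394, minus strand) had 4 H3K27ac peaks, all with a low count per kb. The peak at the start, chr3:187669708-187670785, covered the promoter sequence printed above and had a mean count of 54.2. The highest mean count, 125.8 or 53.6 per kb, belonged to chr3:187639873-187642217, 28.2 kb downstream. The other 2, 51.9 and 52.7 kb downstream, had mean counts of 18.3 and 37.7. Against this weak acetylation stood the densest CTCF peak of the set: chr3:187678315-187680885, 7.92 kb upstream of the start, had a mean count of 541.5 and 210.6 per kb, above 94.1% of all CTCF peaks. CTCF also lay 11.2 kb downstream (mean count 43.0) and 53.0 kb downstream (190.5), and the latter peak met an H3K27ac peak.

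GHRL (ENSG00000157017.16, chr3:10285666-10292947, minus strand) had a single broad H3K27ac peak, chr3:10289797-10294575, that covered its 5 start sites and had a mean count of 728.5. The peak also overlapped the antisense gene GHRLOS and the gene SEC13, and the antibody signal cannot be assigned to either strand. No CTCF peak was assigned to GHRL, and the nearest was 25.7 kb away. IAPP (ENSG00000121351.8, chr12:21354959-21379980, plus strand) likewise had 1 H3K27ac peak, chr12:21372048-21375208, at its canonical start, with a mean count of 203.8. It covered exons of IAPP and overlapped SLCO1A2, a transporter gene. IAPP had no CTCF peak, and the nearest was 41.0 kb away. Genes with at least 1 assigned CTCF peak were 5 of 7 members and 80.9% of protein-coding genes.

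**Figure D3:**
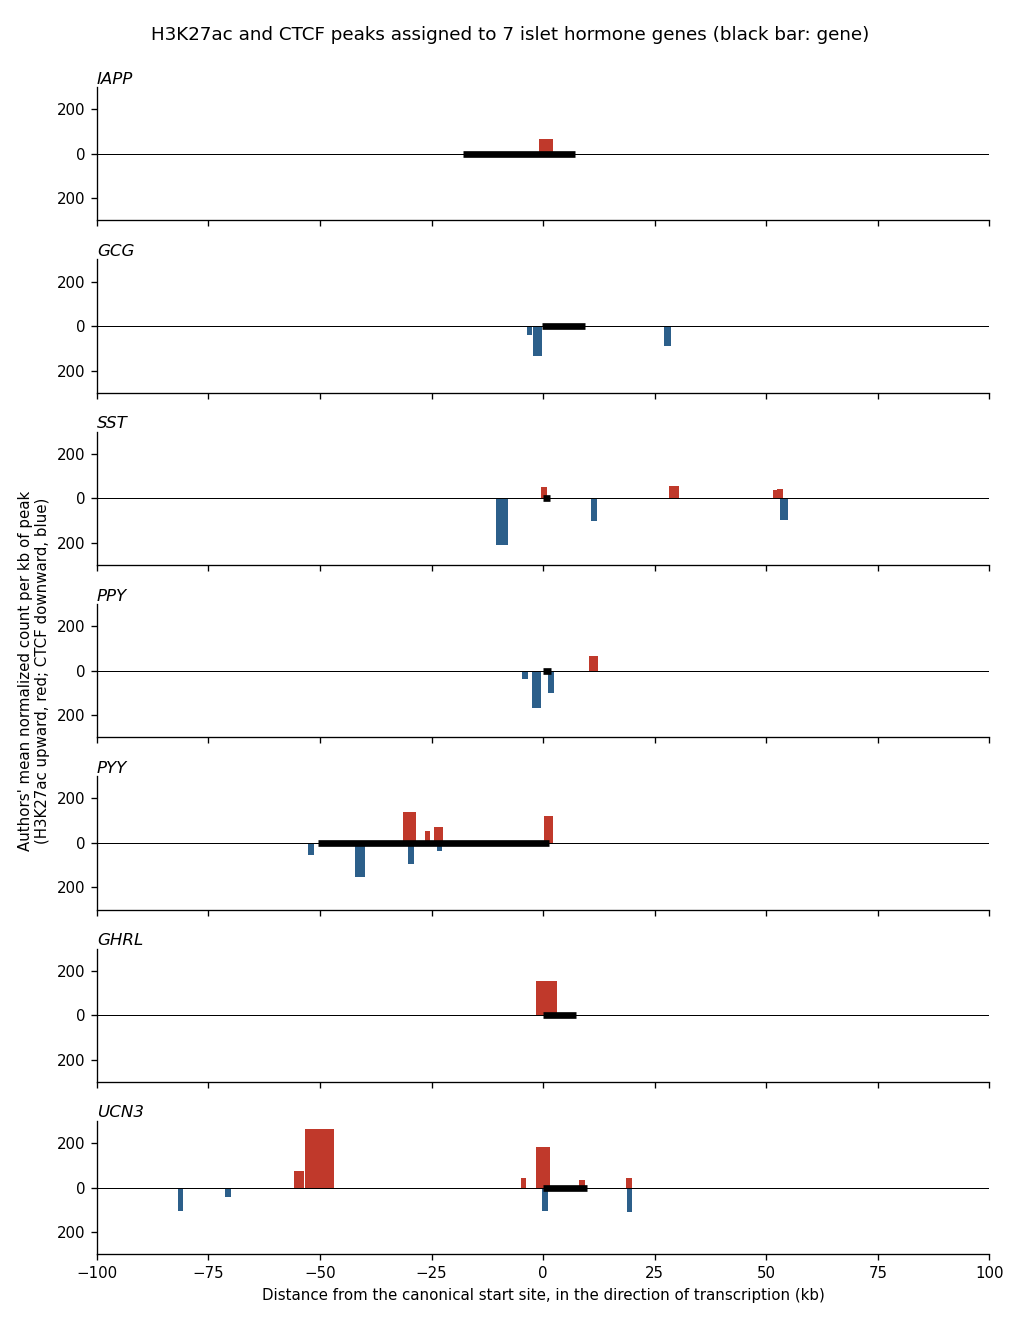
Peaks assigned to each of the 7 genes against the distance from the canonical start site in kb, in the direction of transcription. Bar width is the extent of the peak and bar height the authors' mean normalized count per kb, H3K27ac upward and CTCF downward, and the black bar is the gene. The acetylated region of UCN3 lies far upstream with 264.8 per kb, PYY is acetylated at its canonical start and in the gene body, and GCG shows CTCF alone.

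To show possible CTCF sites, a short form of the CTCF core was searched on both strands of each CTCF peak: CCA, AG and GGC in this order, each followed by the next after 2 free bases. It was found exactly in 3 of 17 member peaks, beside 23.6% of all CTCF peaks and 3.4% of the same regions moved by 10 kb. The 3 matches, printed on the strand that carries the motif with its fixed letters in capitals, were in the downstream peak of GCG, the strong upstream peak of SST and the unacetylated gene body peak of PYY. The fourth sequence, from the strong peak between PPY and PYY, carries all fixed letters but the A of the leading CCA.
GCG, chr2:162123995-162124013, minus strand: taaCCActAGatGGCacca
SST, chr3:187679067-187679085, minus strand: aagCCAgcAGagGGCagga
PYY, chr17:43995507-43995525, plus strand: cttCCAcaAGgaGGCcctg
PPY, chr17:43944155-43944173, plus strand: tcgCCgccAGagGGCgcca

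The matches of GCG and SST pointed in the direction of their gene, and those at PYY and PPY against it. They lay 302.5 bp (GCG), 523 bp (SST), 511.5 bp (PYY) and 140.5 bp (PPY) from the centre of their peak. The SST peak held a further match with the A left free, 1248 bp from its centre. Whether CTCF was bound at these letters was not tested. With the A of CCA also left free, 8 of 17 member peaks matched, beside 38.3% of all CTCF peaks and 9.3% of the moved regions. With any 1 of the 8 fixed letters allowed to differ, 13 of 17 matched, beside 76.1% of all CTCF peaks and 43.1% of the moved regions. The absence of these letters from the other peaks says nothing of whether CTCF was bound there.

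The enhancer lists, made by the authors from regions outside promoters where H3K27ac and H3K4me1 overlap in each state, allowed the 2 states to be set side by side. Even so, 5.92% of the non-senescent and 6.19% of the senescent enhancers were within 2 kb of a protein-coding start site in GENCODE 44. Only PYY and UCN3 had listed enhancers, 2 of 7 members beside 35.1% of protein-coding genes. Of the 17 H3K27ac peaks, 6 overlapped an enhancer of either state, beside 33.3% of all peaks, and 3 an enhancer of both states, beside 19.9%. At PYY, non-senescent cells had 2 enhancers over 3863 bp in all, and senescent cells had 4 over 7243 bp, a ratio of 1.87. At UCN3 the lists went from 2 enhancers over 7825 bp to 1 over 6469 bp, a ratio of 0.827. This direction rests on 1 enhancer 53.7 kb from UCN3: with a limit of 50 kb the lengths were 5776 and 6469 bp, a ratio of 1.12, and with non-coding genes and pseudogenes counted UCN3 had no enhancer in either list. The values of PYY were the same under both choices. Each state has a single list, so neither ratio has a replicate error and no test was possible.

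At PYY, the enhancer beside the canonical start was in both lists, as chr17:43951669-43953780 in non-senescent cells and chr17:43951827-43953768 in senescent cells. It was slightly narrower in senescent cells, by a width ratio of 0.92. The enhancer over the densest H3K27ac peak was also in both, at 1751 bp in non-senescent cells (chr17:43983231-43984981) and 2823 bp in senescent cells (chr17:43982462-43985284). Its width ratio of 1.61 was above 91.1% of 9956 pairs of enhancers that overlap one to one between the lists, whose median ratio was 1.04 and quartiles 0.871 and 1.25. The other 2 gene body regions, chr17:43976449-43978426 and chr17:43979785-43980284, were listed in senescent cells only. Both lie over H3K27ac peaks of the joint peak table, so a region absent from the non-senescent list is not shown to lack acetylation in that state.

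At UCN3, the broad distal enhancer was in both lists, as chr10:5312181-5317956 in non-senescent cells and as chr10:5311653-5318121 in senescent cells. It was wider in senescent cells by a ratio of 1.12, above 61.1% of pairs. The smaller enhancer beside it, chr10:5309224-5311272, was listed in non-senescent cells only. Neither list held the 3 weak peaks of UCN3 or its promoter peak. The lists were made from regions outside promoters, yet both held the enhancer beside the canonical start of PYY. Why the promoter peak of UCN3 is not listed was not tested.

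Over both genes, 3 of 4 non-senescent enhancers overlapped a senescent enhancer by at least 1 bp, a share of 75% (95% Wilson interval 30.1% to 95.4%), beside 70.6% of the whole list, and 1 overlapped none, beside 29.4%. Of the senescent enhancers, 3 of 5 overlapped a non-senescent enhancer, a share of 60% (23.1% to 88.2%), beside 79.5% of the whole list, and 2 overlapped none, beside 20.5%. The intervals cover counting error only and treat neighbouring enhancers of the same gene as independent. Both backgrounds lie inside them, but the intervals are too wide to show likeness to the whole list. Among 5152 genes with an enhancer in both lists, the median ratio of enhancer length in senescent over non-senescent cells was 1.03 (quartiles 0.805 and 1.28), and 53.7% had more in senescent cells. The ratio of PYY was reached or exceeded by 7.20% of these genes, and 27.2% were at or below that of UCN3, whose direction turns with the 50 kb limit as given above.

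**Figure D4:**
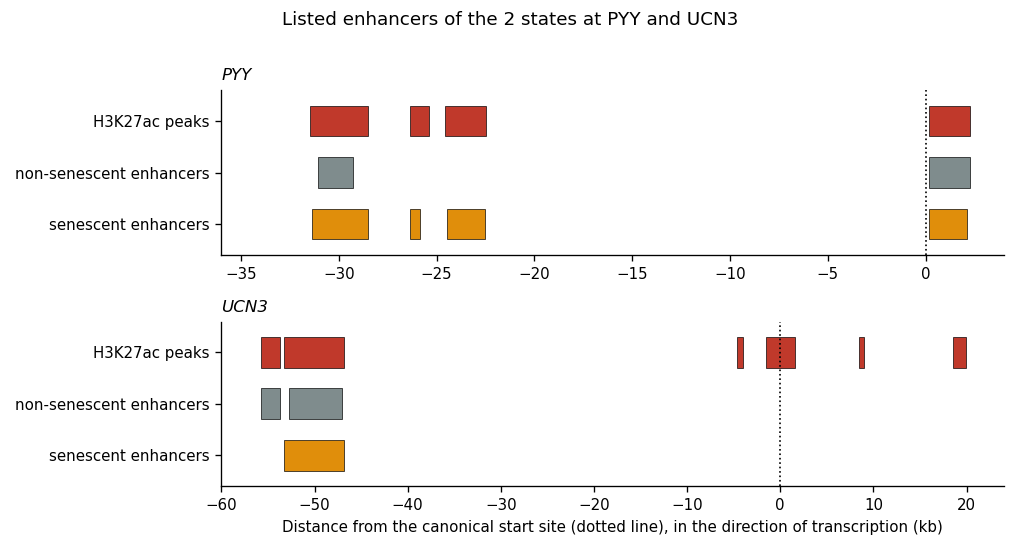
H3K27ac peaks and listed enhancers at PYY and UCN3 against the distance from the canonical start site in kb, in the direction of transcription, with the dotted line at the start. PYY has 2 non-senescent and 4 senescent enhancers, of which 2 gene body regions are in the senescent list only, and UCN3 has 2 non-senescent and 1 senescent enhancer, all far upstream.

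The other 5 genes had no enhancer in either list. The nearest listed enhancers to PPY were those beside the start of PYY, 9.19 and 9.35 kb away in non-senescent and senescent cells. For IAPP the nearest were 12.4 and 11.6 kb away and nearer to SLCO1A2. For SST they were 78.3 kb away in both states and nearer to BCL6, and for GHRL 85.8 and 85.4 kb away and nearer to IRAK2. The nearest enhancer to GCG was 155 kb away in the non-senescent list and 62.0 kb away in the senescent list, in each case nearer to DPP4.

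No Rb region lay near a member. The deposited Rb list holds regions enriched in senescent over non-senescent cells, and the nearest to any member was 243 kb from GCG, whereas that nearest to GHRL was 4806 kb away. Of all protein-coding genes, 1.57% had such a region within 2 kb of a start site.

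Other genes of the hormone pathways were described from lists of genes chosen by function. Beside the 66.4% of all protein-coding genes with H3K27ac at a start site, all 8 genes of prohormone processing had it, with a median of 178.7 per kb for the densest peak, from PCSK2 (371.9) and PCSK1 (287.7), the convertases that cut prohormones, down to DPP4 (93.7) and MBOAT4 (75.6), the acyltransferase that modifies ghrelin. Of 16 islet lineage factors 14 had H3K27ac at a start site, with a median of 347.1 per kb. PAX6 (536.8) was the highest, and MAFA (49.5), a factor of mature beta cells, was the lowest. Of 18 hormone receptor genes 5 had it, among them the somatostatin receptors SSTR1 (420.0) and SSTR2 (255.2) as the highest and RAMP1 (142.0) and SSTR5 (71.7) as the lowest. The median of the 5 acetylated receptor genes was 204.4 per kb, and that of the 5 acetylated hormone genes was 120.2. CTCF was at the start of 6 of 8 processing genes, 8 of 16 factors and 8 of 18 receptors, beside 47.6% of all protein-coding genes. Listed enhancers numbered 18 in non-senescent and 17 in senescent cells for the processing genes, 18 and 19 for the factors, and 10 and 9 for the receptors. Of the processing enhancers, 6 in each state were those of PCSK2. Genes with an enhancer in either list were 6 of 8 processing genes, 11 of 16 factors and 7 of 18 receptors, beside 35.1% of all protein-coding genes.

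Markers of cell types were read in the same way to set the labelled cell type beside the data. H3K27ac lay at the start of 7 of 7 beta cell markers and of 5 of 5 alpha cell markers, among them IRX2 (303.4 per kb). It lay at 2 of 3 delta cell, 2 of 4 ductal, 1 of 5 acinar and 0 of 5 mesenchymal cell markers. These counts stand beside 66.4% of all protein-coding genes. The lists are short, and no count was tested against that share. The acetylated alpha cell list stood beside a GCG locus with no H3K27ac peak. Its part in any value of the hormone genes was not tested.

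The genes most like PYY and UCN3 were sought over 5 pooled measures: H3K27ac at the start, H3K27ac summed over assigned peaks, enhancer length in each state and summed CTCF. Each was taken as log2(value + 1) in units of its SD over protein-coding genes. Nearest to PYY were PDLIM1 and CLCN5, at distances of 0.106 and 0.120 SD. Nearest to UCN3 were ALG9 and ETS1, at 0.0987 and 0.105 SD. The enhancer lengths of UCN3 and its largest H3K27ac count rest on distal regions that go to RPL26P28 when pseudogenes are counted. Distances between other genes are not given, so it is not known whether these are small.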

How the data were processed

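ChIP-seq libraries of the EndoC-βH3 line were grouped by their labels as senescent or not. The authors aligned reads to hg38 with Bowtie2, called peaks with HOMER (histone marks) or MACS2 (CTCF, Rb), and listed enhancers per state. The deposited peak tables give, per peak, the authors' mean normalized read count (a signal, averaged over the 6 libraries of both states by DESeq2) and the authors' own fold changes and p-values between the states, which were not used. The study's methods give a target depth, but counts per library were not used here, so the depth behind each peak is unknown and no test between states was run. CTCF peaks are stated to be filtered for the CTCF motif.

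Peaks were assigned to protein-coding start sites of GENCODE 44 by edge distance, with Python 3.11.15, pandas 2.3.3 and numpy 2.4.6. Assignment and overlap of regions were tested on simulated regions. Promoter sequences are from RefSeq, and 9 of 9 were identical in hg38. All 7 members were named whatever their values. From each list of pathway genes the 2 highest and 2 lowest per kb at a start site were named, and for members with enhancers the 2 most similar genes; 2 genes that the rule would name are not reported here. Members and lists were chosen with earlier results of these data known. Alternatives were the annotation, distance, window, count minimum, overlap and motif.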

Additional observations from a re-analysis of the deposited data

How the results depend on the processing

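Of 33 alternatives over 11 results, 26 left the value within 1.5 times or inside its interval, 6 did not and 1 turned a direction. The last was the ratio of enhancer length at UCN3, 1.12 in place of 0.827 with a limit of 50 kb. CTCF peaks assigned to the 7 genes fell from 17 to 11 with a mean count of at least 50. Non-senescent enhancers fell from 4 to 2 when pseudogenes and non-coding genes could be nearest, since those of UCN3 then went to RPL26P28. Under that choice senescent enhancers numbered 4, none of them at UCN3. With a reciprocal overlap of 90%, shared enhancers were 25% (4.56% to 69.9%) of the non-senescent and 20% (3.62% to 62.4%) of the senescent ones. CTCF peaks with a core motif numbered 8 in place of 3 with the A of CCA left free, and 13 with 1 mismatch allowed. H3K27ac at start sites stayed at 5 of 7 genes in the 4 alternatives tried, and CTCF at 3 or 4. No paired analysis was possible because the deposited tables hold no column per library, and for the same reason no replicate could be left out. The depth behind each peak is unknown.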
